A study of Mus musculus with 32 samples.

Results

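The material described is the total RNA of vehicle-treated cultures of mouse hippocampus, the baseline against which the study measured 2 drugs. Its members are the 4 libraries whose headings in the deposited count table are Control 1 to Control 4, chosen by their label alone, out of 16 total RNA libraries and 32 samples in the series. Hippocampi of P0 mice (the day of birth) were dissociated and grown as primary neurons, and RNA was collected at 16 days in vitro. The cultures behind these 4 libraries received DMSO, the solvent, for 30 min, in the same volume as the drug solutions. The drugs were 50 uM forskolin, which activates adenylyl cyclase, and 30 uM DHPG, which switches on metabotropic glutamate receptors of group I. The drug-treated libraries are not analysed here, and no treatment contrast is made. No strain, transgene or deletion is given in the labels. They do not state whether the 4 libraries came from separate cultures or animals, so how much of the spread between them is technical is not known. In such bulk samples fewer cells of a type cannot be told apart from less RNA per cell.

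Dissociated hippocampal cultures are grown for their pyramidal neurons, which signal with glutamate, and they also hold GABAergic interneurons and glia that divide and mature in the dish. Transmission in them runs through AMPA and NMDA receptors for fast excitation, GABA-A receptors for fast inhibition, and G protein-coupled receptors that set cAMP and calcium. Immediate-early genes such as Fos, Arc and Npas4 are transcribed within minutes of synaptic activity or of a rise in cAMP, and they are widely used as markers of recent activity.

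The libraries held 21793779, 38409761, 41189209 and 45966415 estimated counts, in the order Control 1 to Control 4. All sets of 4 values below follow that order, and means are given ± SD over the 4 libraries (n = 4). Levels are CPM (counts per 1000000 counts of a library), scaled by a factor per library that balances the bulk of the features (trimmed mean of M values, TMM). Between genes CPM compares shares of reads, which also grow with transcript length. Control 1 was the shallowest library and stood apart from the others: over the 13396 features at 1 CPM or more in all 4, Spearman's rho with the other libraries was 0.950, 0.965 and 0.956, against 0.979 to 0.990 among Control 2 to 4. Between Control 1 and Control 2, 10.4% of these features differed by more than 2-fold, and between Control 3 and Control 4 it was 0.396%. Some results that rest on Control 1 are therefore also given without it, where this is stated. All other values include Control 1.

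Most of the reads came from messenger RNA of the nucleus, with a few structural RNAs taking a large part of the rest. Nuclear protein-coding genes took 74.8, 69.4, 62.6 and 66.9% of the counts, a mean of 68.4 ± 5.08% (SD, n = 4). Small and structural non-coding RNAs took 16.0 ± 2.55%, annotated long non-coding RNAs 1.45 ± 0.0728%, pseudogenes 1.21 ± 0.348% and mitochondrial mRNAs 0.915 ± 0.208%. The ribosomal RNAs of the mitochondrion took 1.74% of counts in Control 1 and 10.8, 18.7 and 15.8% in Control 2 to 4, with a mean of 11.8 ± 7.44% over all libraries and of 15.1% without Control 1. All these are shares of counts after library preparation and do not measure the RNA make-up of the cells. The part of library preparation in the share of ribosomal RNA was not tested. Of the 51267 features, 13396 were at 1 CPM or more in all 4 libraries, 1696 in some of them only, 15216 were counted but stayed under 1 CPM, and 20959 were at 0 in all 4 after rounding. By class, 12510 of 21900 nuclear protein-coding genes (57.1%) reached 1 CPM in every library, against 497 of 9981 long non-coding RNAs (4.98%) and 280 of 13249 pseudogenes (2.11%). A count of 0 allows up to 3 counts, which is 0.129, 0.0754, 0.0785 and 0.0669 CPM, a limit that covers counting error only.

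**Figure D1:**
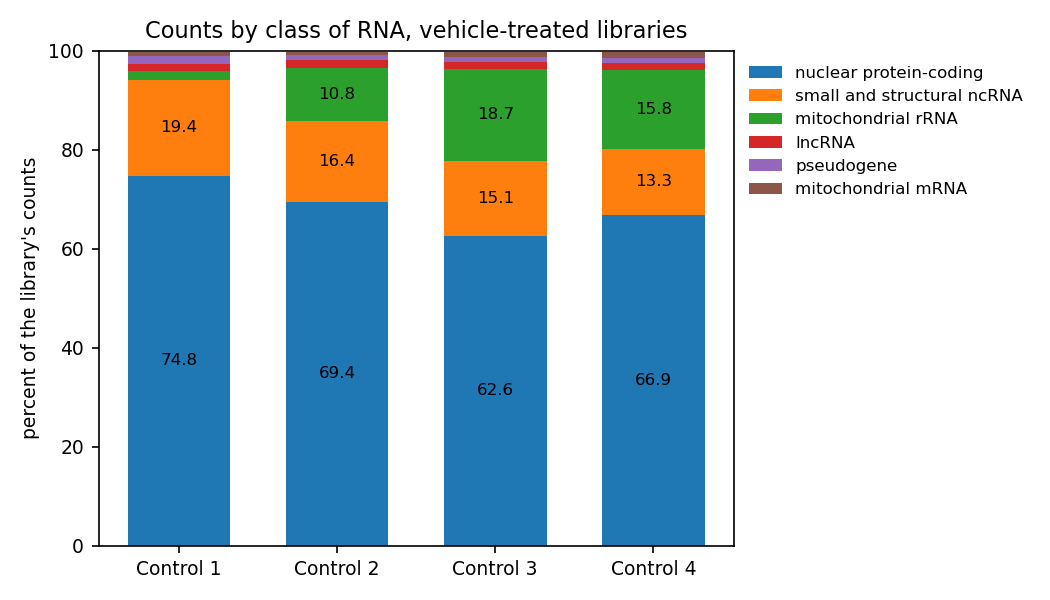
Percent of each library's counts (vertical axis) by class of RNA, 1 bar for each of the 4 vehicle-treated libraries. Mitochondrial ribosomal RNA took 1.74% in Control 1 and 10.8 to 18.7% in the other 3, while nuclear protein-coding genes took from 62.6 to 74.8%.

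The single feature with the most reads was Rn7s1, the RNA of the signal recognition particle, which guides secreted and membrane proteins to the endoplasmic reticulum. It took 15, 12.5, 11.5 and 10.1% of all counts. Rn7sk, the RNA that holds the elongation factor P-TEFb inactive, took 3.08, 2.74, 2.60 and 2.40%. Both were highest in Control 1 and lowest in Control 4. Because both are unspliced transcripts, their length is the span of their gene, and levels are set side by side per kilobase of that length (CPM per kb). The RNAs compared here are 154 to 332 bases long, and no correction for fragment size was made. The scale is therefore approximate. On that scale Rn7s1 (GRCm38 chromosome 12, 69159295 to 69159593) stood at 408417 ± 51285 and Rn7sk (chromosome 9, 78175302 to 78175633) at 81275 ± 5691 (SD, n = 4). Rpph1, the RNA of ribonuclease P, stood at 17974 ± 2148 and Bc1, a brain RNA of dendrites that represses translation, at 18149.5 ± 6936. Rmrp, the RNA of ribonuclease MRP, stood at 4273 ± 951. The ranges of these RNAs did not overlap from Rn7s1 to Rn7sk to the other 3, whereas Bc1 (11882 to 24512) overlapped Rpph1 (15303 to 20261). Both 7SL and 7SK have many near-identical copies in the genome, so the part assigned to these entries is uncertain.

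Some small RNAs were much higher in Control 1, among them the Y RNAs, small partners of the Ro60 protein. Rny1 was at 443, 63.6, 42.5 and 30.0 CPM and Rny3 at 469.8, 45.2, 49.4 and 31.6 CPM. Control 1 lay far above the other 3 for both, which were picked after their values were seen. U3 snoRNA Rnu3b2, which guides the cutting of ribosomal RNA precursors, was at 529.8, 262, 179.6 and 131 CPM, again with Control 1 the highest. RNA integrity was not given in the labels, and its part in these differences was not tested.

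Among mitochondrial genes, mt-Co1, a core subunit of cytochrome c oxidase, was the highest mRNA at 5806, 4968, 7343 and 9009 CPM. Per kilobase mt-Co1 stood at 4389 ± 1153 CPM, mt-Nd1, a subunit of complex I, at 615 ± 220.2, and mt-Cytb, the cytochrome b of complex III, at 479 ± 84. The ranges of mt-Co1 (3216 to 5831) and of the other two (312 to 793 and 363 to 558) did not overlap, and those of mt-Nd1 and mt-Cytb did. mt-Co2, whose product joins the same enzyme as mt-Co1, was at only 17.4 ± 3.41 CPM per kb, and mt-Nd3 was listed at 0 in Control 4 after 26.5, 5.68 and 7.75 CPM in Control 1 to 3. Beside the 13 mitochondrial mRNAs, which summed to 7268, 7056, 10435 and 12160 CPM, 5 unprocessed pseudogenes named after their values were seen (Gm28437, Gm28661, Gm29216, Gm28438 and Gm10925) summed to 4972, 2073, 3460 and 3347 CPM. Such pseudogenes include nuclear copies of mitochondrial genes, and estimation can split reads between near-identical sequences, so the values of single mitochondrial mRNAs are uncertain. The 2 ribosomal RNAs were lower in Control 1 by far: mt-Rnr2, of the large subunit, was at 14308, 91829.6, 171815 and 139843 CPM, and mt-Rnr1, of the small subunit, at 2004, 12540.4, 29779.7 and 22456 CPM.

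The nuclear mRNAs with the largest read shares came from genes of varied roles. Tuba1a, an alpha-tubulin of growing neurons, was at 3474, 2609, 2964 and 2831 CPM. Eef1a1, the factor that brings aminoacyl-tRNA to the ribosome, was at 3353, 2553, 2729.8 and 2727 CPM. Actb, cytoplasmic actin, was at 3086, 2579, 2555 and 2389.5 CPM. Each of these 3 was highest in Control 1. Scd2, which desaturates fatty acids, was at 2109, 2724, 2625 and 2589 CPM, and Apoe, the lipid carrier that astrocytes secrete, at 1787, 2493, 2457 and 2160.1 CPM, both lowest in Control 1. Calmodulin, the calcium sensor, is made from several genes with the same protein sequence, of which Calm3 was at 1726 ± 237 CPM and Calm2 at 764 ± 155 CPM. Further genes of the leading 15 were Cpe, Sptan1, Actg1, Cst3, Hsp90ab1, Psap and Glul, with means between 1413 and 1861 CPM. No gene dominated: the 10 with the most reads held 3.21 to 3.52% of nuclear protein-coding counts, and 1107, 1245, 1185 and 1219 genes were needed to reach 50% of them.

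Among features annotated as long non-coding RNAs the leading entries were Gm26917 at 3135 ± 745 CPM, Bc1 at 2795 ± 1068 CPM and Rmrp at 1175 ± 261 CPM. Gm26917 (3402, 4037, 2773 and 2328 CPM) and Gm42418 (301, 373, 234 and 173 CPM) had the same order of libraries. Whether the reads of these 2 entries come from other RNAs of like sequence was not tested. Bc1 fell into a lower pair, 1913 and 1830 CPM in Control 1 and 2, and a higher pair, 3775 and 3663 CPM in Control 3 and 4. Malat1, a nuclear RNA of splicing speckles, was at 671, 934, 753 and 1228 CPM. Rian, also called Meg8, from the maternally expressed Dlk1-Dio3 cluster, was at 345 ± 65.4 CPM. The other leading entries were 2900097C17Rik, Gm42418 and Cct6a, the last of which names a protein-coding chaperonin gene but carries a processed-transcript biotype in the authors' deposited table.

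Astrocyte markers had the largest summed level of the 16 cell type lists, ahead of general neuronal markers, and markers of microglia, endothelium and blood had the smallest sums. The 15 astrocyte markers, each at 1 CPM or more in every library, summed to 7691, 12294, 11904 and 11024.5 CPM. The summed levels compare read shares of lists of unequal size and are no cell proportions. Glul, glutamine synthetase, was at 1018, 1455, 1582 and 1598 CPM. Slc1a2 and Slc1a3, the glial glutamate transporters, were at 966, 1281, 1550.4 and 1759 CPM, and at 1079, 1302, 1237 and 1274 CPM. Gfap, the intermediate filament of astrocytes, varied most among the abundant ones, at 596, 1912, 1459 and 906 CPM. Control 1 was the lowest of the 4 libraries for 14 of the 15 astrocyte markers, where 35.3% of all 13396 features were lowest in it. Control 2 was the highest for 11 of 15, against 24.1% of all features. Without Control 1 it was the highest for 12 of 15, against 37.7% of all features.

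Markers of glutamatergic neurons were all present. Slc17a7, the vesicular glutamate transporter of cortical and hippocampal pyramidal cells, was at 649, 793, 848 and 748 CPM, and Slc17a6, its subcortical counterpart, at 9.07, 2.97, 5.86 and 6.80 CPM. The ratio of Slc17a7 to Slc17a6 counts was 71.6, 267, 145 and 110 within the 4 libraries. All 14 excitatory neuron markers passed 1 CPM in every library, and they summed to 1331, 1769, 1802 and 1806 CPM, with Control 1 lowest for 11 of 14, where 35.3% of all features were lowest in it. Lists for CA1, CA3 and the dentate gyrus each had 5 or 6 of 6 members at 1 CPM or more in every library. Wfs1 and Mpped1, associated with CA1, were at 44.8 ± 4.54 CPM and 52.7 ± 13.6 CPM, Grik4, associated with CA3, at 39.8 ± 7.16 CPM, and Prox1, the transcription factor of dentate granule cells, at 12.2, 54, 35.4 and 45.7 CPM. The CA1 list summed to 158.8 ± 16.0 CPM, the CA3 list to 128.5 ± 5.01 and the dentate list to 178.3 ± 43.7 (SD, n = 4). Control 1 was lowest for 4 of the 5 dentate markers that passed 1 CPM (35.3% of all features were), while 1 of the 5 was highest there.

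GABAergic interneurons were represented by 15 of 18 markers at 1 CPM or more in all libraries, and the other 3, Dlx2, Dlx5 and Dlx6, passed it in some. Gad1 and Gad2, the enzymes that make GABA, were at 354, 192, 257 and 268 CPM, and at 60.6, 52.7, 66.1 and 93.6 CPM. Slc32a1, which loads GABA into vesicles, was at 68, 37, 51.7 and 43.8 CPM. Of the subtype markers, Sst was at 93, 51.8, 135 and 114 CPM, Cck at 144, 167, 259 and 217 CPM, Reln at 190.1, 124, 168 and 189 CPM and Calb2 at 227, 83.6, 100.3 and 97.8 CPM, while Pvalb, the mark of fast-spiking cells that mature late, was at 2.67, 4.25, 4.29 and 3.88 CPM. Control 2 was the lowest library for 12 of the 15, where 25% of all features were lowest in it. Among Control 2 to 4 alone it was lowest for 14 of 15, where 34.9% of all features were. Calb2 and Reln are also marks of Cajal-Retzius cells, the early-born cells of the marginal zone. The more specific Lhx1, Lhx5 and Ebf3 stayed between 0 and 0.157 CPM, and Trp73 was at 0.344, 5.03, 3.19 and 2.76 CPM. General neuronal markers summed to 4232, 3028, 3691 and 4037 CPM. Of the 12, 6 were highest in Control 1 (38.9% of all features were) and 5 in Control 4 (27% of all features were). Among the first, Stmn2, a regulator of microtubules in axons, was at 329, 140.1, 182 and 177 CPM, Gap43 at 291, 143, 192 and 216 CPM, and Nefl, the light neurofilament, at 509, 256, 299 and 295 CPM. Rbfox3, which encodes the nuclear marker NeuN, was nearly level at 63.9, 59.5, 70.2 and 67.2 CPM.

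**Figure D2:**
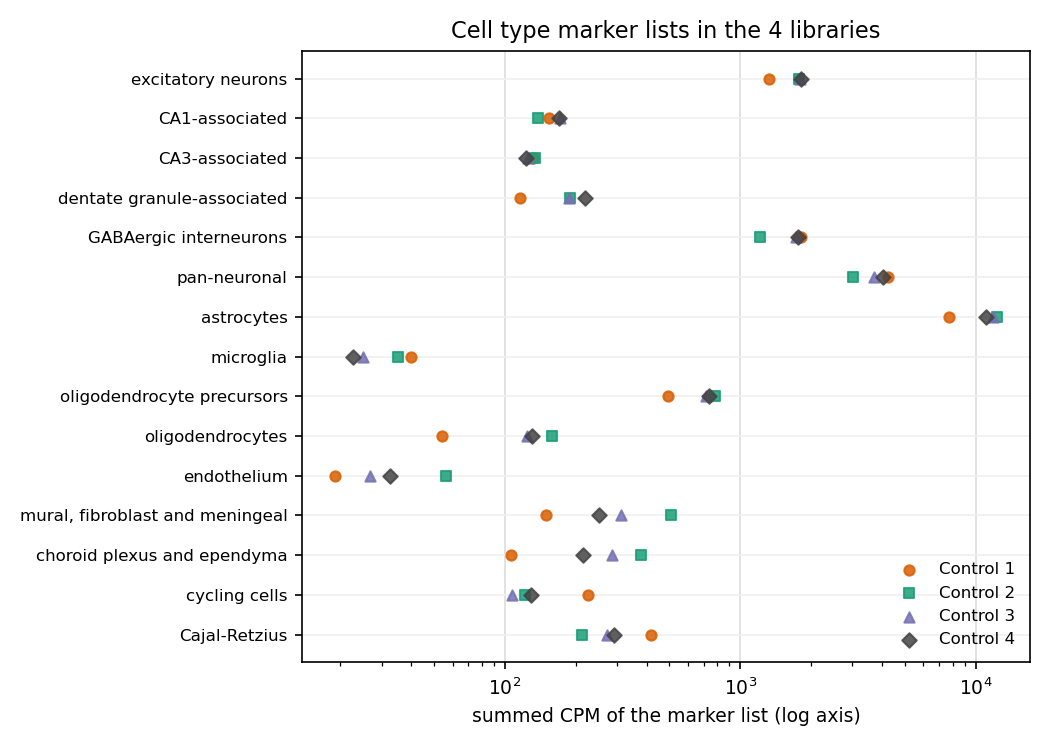
Summed CPM of each cell type marker list (horizontal log axis), 1 point for each library. Control 1 lies below the others for astrocytes (7691 against 11024.5 to 12294 CPM), oligodendrocyte precursors and ependyma and above them for cycling cells.

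In the oligodendrocyte lineage the precursor list had the larger sum, and 4 of 10 markers of mature oligodendrocytes passed 1 CPM in every library. All 7 precursor markers passed 1 CPM in every library and summed to 495.9, 780.9, 713.2 and 737.4 CPM. Pdgfra, the growth factor receptor of these cells, was at 69.5, 243, 205 and 242 CPM, and Gpr17, a receptor of cells that begin to differentiate, at 6.58, 101, 113 and 103 CPM. For both, Control 1 lay below the other 3, while Olig1, a factor of the whole lineage, was highest there at 295, 216, 190.4 and 194 CPM. Control 1 was lowest for 6 of the 7, against 35.3% of all features. Of the myelin genes, Mbp was at 11.7, 35.7, 32 and 35.9 CPM, while Mog, a late myelin gene, stayed between 0.0524 and 0.352 CPM. Microglial markers summed to 40.1, 35.1, 24.9 and 22.7 CPM. P2ry12, a marker of homeostatic microglia, stayed between 0.172 and 0.446 CPM. Of 10 endothelial markers 3 passed 1 CPM in every library, and the list summed to 19.1, 56.1, 26.7 and 32.7 CPM. Kdr, a receptor for VEGF, was at 8.04, 21.9, 6.78 and 7.76 CPM, Cdh5, the cadherin of endothelial junctions, at 0.0430, 7.51, 4.19 and 3.14 CPM, and the tight junction gene Cldn5 was listed at 0 in all 4 libraries. The globins Hba-a2 and Hbb-bt were also listed at 0. Blood genes summed to at most 0.377 CPM. The vascular and meningeal list was low but varied, at 149.5, 509.5, 311.4 and 251.2 CPM, with the collagen gene Col1a2 at 14.4, 98, 45.2 and 32.1 CPM. All 11 of its members were highest in Control 2 (24.1% of all features were). Likewise all 7 ependymal and choroid plexus members that passed 1 CPM were highest in Control 2, and leaving out Control 1 changes neither count (37.7% of all features were then highest in Control 2). Foxj1, the regulator of motile cilia, was at 20.3, 168, 94.9 and 81.2 CPM, and Ttr, a secreted carrier of choroid plexus, at 74.6, 164, 159 and 106 CPM. Cycling cells left a signal in every library: the 12 markers summed to 226.4, 122.0, 107.1 and 129.1 CPM, all 12 were highest in Control 1 (38.9% of all features were), and 7 of them exceeded the mean of the other 3 libraries at least 2-fold (1.86% of all features did). Top2a, the topoisomerase of dividing cells, was at 49.4, 28.7, 23.4 and 31.3 CPM.

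All 4 libraries held both Xist and Y-linked mRNA. Xist, the RNA that coats the inactive X, was at 22.8, 134, 62.1 and 110.1 CPM. Ddx3y, a Y-linked RNA helicase, was at 14.2, 3.42, 9.64 and 16.2 CPM, and Eif2s3y, a Y-linked translation factor, at 11.2, 2.19, 6.83 and 10.3 CPM. Control 2 was the highest library for Xist and the lowest for Ddx3y, Eif2s3y, Kdm5d and Uty, and Control 1 was the lowest for Xist. These genes were chosen after their values were seen. Tsix runs antisense to Xist. The library kit was a stranded one, but no source used here states whether strand was used in counting. Whether reads of Tsix are among those counted for Xist was not tested.

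AMPA receptor subunits were led by Gria1 and Gria2. Gria1 was at 687, 617, 668 and 718 CPM, and Gria2, the subunit that makes the edited channel impermeable to calcium, at 318, 245, 222 and 338 CPM. Gria3 was at 32.2 ± 6.93 CPM and Gria4 at 48.3 ± 12.3 CPM. The ratio of Gria2 to Gria1 counts was 0.462, 0.397, 0.333 and 0.471, a spread of 15.5% (CV); it also carries the lengths of the transcripts and gives no order of molecules. All 11 auxiliary subunits passed 1 CPM in every library, led by Cnih2, which slows the closing of the channel, at 214 ± 21.3 CPM. Of 7 NMDA receptor genes 6 passed. The obligatory subunit Grin1 was at 230.3, 225, 269 and 242 CPM, Grin2b, which prevails early in development, at 283, 368, 322 and 473 CPM, and Grin2a, which joins later, at 131, 152, 137 and 199.9 CPM. The ratio of Grin2b to Grin2a counts was nearly the same in every library, at 2.15, 2.42, 2.35 and 2.37, a CV of 5.01%. Grin2c was the one member highest in Control 1, at 15.7, 4.05, 6.91 and 4.44 CPM. Grin3b stayed between 0 and 0.131 CPM. All 9 kainate and delta receptor genes passed 1 CPM, with Grid1 at 74.6 ± 9.21 CPM.

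Of 8 metabotropic glutamate receptors 7 passed 1 CPM in all libraries, and Grm5, a target of DHPG, had the largest read share. Grm5 was at 170.3, 153, 154 and 247 CPM, with Control 4 the highest library. Grm7, a presynaptic receptor of low affinity, was at 49.5 ± 6.13 CPM, and Grm3, which astrocytes share, at 7.57, 14.4, 18.3 and 20.9 CPM, with Control 1 lowest. Grm6, known from the retina, stayed at or below 0.0446 CPM. The signalling chain below group I receptors was largely present: 14 of 16 genes passed 1 CPM in all libraries. Gnaq and Gna11, the G proteins, were at 92.4 ± 17.2 CPM and 128 ± 21.1 CPM, Plcb1, the phospholipase, at 101 ± 16.1 CPM, Itpr1, the calcium release channel, at 85 ± 14.8 CPM, and Homer1, the scaffold, at 55.3 ± 11.7 CPM. Plcb2 stayed at or below 0.111 CPM. Control 4 was the highest library for 10 of these 14, where 27% of all features were highest in it.

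Of the 10 adenylyl cyclases, which make cAMP, 7 passed 1 CPM in all libraries. Adcy1, a calcium-stimulated form, was at 278, 276, 311 and 348 CPM. Adcy5 was at 96.8, 100.4, 100.1 and 97.9 CPM, Adcy3 at 85 ± 8.04 CPM, Adcy2 at 69.6 ± 5.89 CPM and Adcy9, which responds little to forskolin, at 53.7 ± 4.81 CPM. The ratio of Adcy1 to Adcy9 counts was 4.65, 5.08, 5.93 and 7.23. Adcy10, the soluble form, and Adcy4 stayed at or below 0.178 CPM. The whole list had a steady sum of 664.3 ± 32.2 CPM (SD, n = 4), a CV of 4.84%. All 11 genes of protein kinase A and Epac passed. Prkar1a, a regulatory subunit, was at 411 ± 21.6 CPM, Prkacb, a catalytic subunit, at 207 ± 29.6 CPM, and Rapgef4, which encodes Epac2, at 117, 60.7, 73.4 and 94.8 CPM.

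GABA-A receptors showed 12 of 19 subunits at 1 CPM or more in all libraries. By read share the alpha subunits were led by Gabra5, the extrasynaptic subunit typical of hippocampus, at 142, 149, 168 and 206 CPM, with Gabra2 at 96.1, 76.3, 87 and 124 CPM. Of the beta subunits, Gabrb1 was at 105, 172, 141 and 225 CPM and Gabrb2 at 45.2 ± 9.78 CPM. Gabra6, known from cerebellar granule cells, was listed at 0 in all 4. Control 4 was the highest library for 11 of the 12 subunits that passed and for all 4 AMPA subunits, where 27% of all features were highest in it. Without Control 1 these counts were the same, 11 of 12 and 4 of 4, with 36.4% of all features highest in Control 4. GABA-B subunits Gabbr1 and Gabbr2 were at 528 ± 51.6 CPM and 303 ± 22.2 CPM. The glycine receptor was present as Glrb at 94.5 ± 22 CPM and Glra2, its embryonic alpha subunit, at 11 ± 1.86 CPM, while Glra1, the adult spinal form, was listed at 0 in all 4. The potassium-chloride exporter Slc12a5, or KCC2, which makes GABA inhibitory, was at 299, 277, 298 and 266 CPM, and the importer Slc12a2, or NKCC1, at 18.1, 31.2, 24.4 and 29.8 CPM. Their count ratio was 16.5, 8.89, 12.2 and 8.93.

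**Figure D3:**
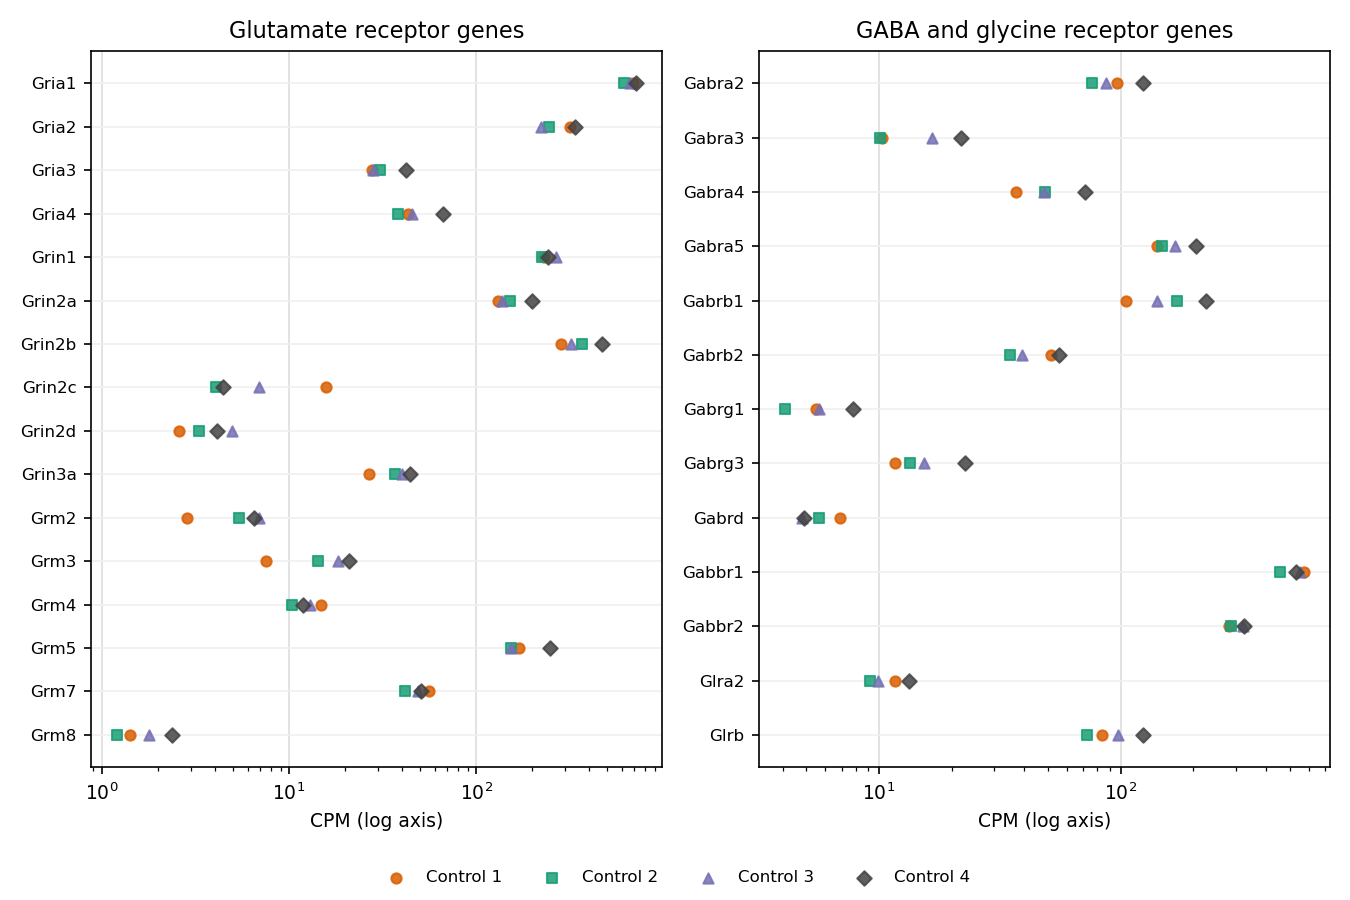
CPM (horizontal log axes) of glutamate receptor genes (left) and of GABA and glycine receptor genes (right), among those that reached 1 CPM in all 4 libraries, 1 point for each library. Control 4 is the right-most point for the 4 AMPA subunits and for 8 of the 9 GABA-A subunits drawn, and most genes keep their place from library to library.

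Modulatory receptors had smaller read shares, with a few exceptions. Adora1, the inhibitory adenosine receptor, was at 183, 209, 198 and 184 CPM, and Cnr1, the presynaptic cannabinoid receptor, at 224, 169, 242 and 329 CPM. Adcyap1r1, the receptor for PACAP, which raises cAMP, was at 189 ± 35.7 CPM. Chrm1, the main muscarinic receptor of pyramidal cells, was at 112, 118, 128 and 135 CPM, and Chrnb2, a nicotinic subunit, at 70.2 ± 9.06 CPM. Only 3 of 16 nicotinic genes (Chrna4, Chrna7 and Chrnb2) passed 1 CPM in all 4 libraries. Of 9 adrenergic receptors 6 passed, with Adra2a at 29.5 ± 8.12 CPM and Adrb1 at 13.7 ± 4.34 CPM. Of 14 serotonin receptors 6 passed, led by Htr1a at 37.4 ± 5.34 CPM. Dopamine receptors were close to the detection limit: Drd1 was at 1.89, 2.49, 2.38 and 3.21 CPM, the only 1 of 5 to pass. Among growth factor receptors, Ntrk2, or TrkB, the receptor for BDNF that neurons and astrocytes share, was at 612, 1034, 889 and 909 CPM, and Ntrk3 at 142 ± 31.5 CPM.

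Of 15 sodium channel genes 10 passed 1 CPM in all libraries. Scn2a, the axonal channel of young pyramidal cells, was at 290.0, 280.2, 259 and 368 CPM, Scn8a, which replaces it at mature nodes, at 139, 135, 141 and 154 CPM, and Scn1a, the channel prominent in interneurons, at 35 ± 7.28 CPM. Their muscle and peripheral relatives Scn4a and Scn10a stayed at or below 0.0524 CPM. The ratio of Scn2a to Scn8a counts was 2.09, 2.08, 1.84 and 2.39. Of 18 calcium channel genes 16 passed, led by Cacna1e, the R-type channel, at 94.8, 158, 169.8 and 201 CPM, and by Cacna1b and Cacna1c, the N-type and L-type channels, at 145, 120.0, 85 and 82.8 CPM, and at 81.9, 114, 119 and 118 CPM. Cacna1b was highest in Control 1 and Cacna1e lowest in it. Of 40 voltage-gated potassium channel genes 31 passed. Kcnq5, of the M current, was at 142 ± 16 CPM, and Kcnd3, of the A current, at 95.3 ± 9.37 CPM. Kcnj10, the inward rectifier of astrocytes, was at 117 ± 24.5 CPM, and Kcnma1, the BK channel, at 116, 114, 116 and 159.8 CPM. All 4 HCN pacemaker genes were lowest in Control 2 (25% of all features were), with Hcn2 at 83.7, 51.4, 59.9 and 51.4 CPM. Summed over each list, the CV between libraries was 8.89% for sodium, 6.27% for calcium and 7.41% for voltage-gated potassium channels, and 16.4% for HCN, 12.9% for calcium-activated and 10% for inward rectifier and tandem-pore potassium channels. The median CV of single members was 14.6, 19.3 and 18.5% for the first 3 lists, and over all detected features it was 16.0%.

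Immediate-early genes were present in all 4 libraries. By CV of the sum over all 4 they differed more than any receptor or channel list, apart from the dopamine receptors near their detection limit. This ranking was not computed without Control 1. In Control 2 to 4 their sums ran from 914.7 to 1361 CPM, and those of GABA-A receptors from 811 to 1220 CPM. Several cell type lists had a larger CV, up to 49.6% for the vascular and meningeal list. The 30 genes summed to 592.6, 1361, 949.7 and 914.7 CPM, a CV of 33.0%. Fos, a subunit of AP-1, was at 24.1, 158, 91.3 and 84 CPM. Npas4, a factor induced by calcium entry in neurons, was at 7.10, 88.5, 21.2 and 20.8 CPM. Arc, which acts on the trafficking of AMPA receptors, was at 20.9, 77.3, 36.4 and 33.2 CPM, and Egr1, a zinc finger factor, at 22.4, 111, 72.6 and 72.8 CPM. Nr4a1, an orphan nuclear receptor, was at 6.62, 33.5, 16.9 and 14.9 CPM. For all 5, Control 2 was the highest and Control 1 the lowest library. Junb was at 24, 98.1, 49.1 and 37.9 CPM, Btg2, which restrains proliferation, at 18.4, 75.1, 38.7 and 39.5 CPM, and Dusp1, a phosphatase of MAP kinases, at 5.98, 33.2, 20.3 and 19.6 CPM. Of the 28 members at 1 CPM or more in all libraries, 18 were highest in Control 2 (24.1% of all features were) and 21 lowest in Control 1 (35.3% of all features were). For 9 of the 28, Control 1 was at most 0.5 times the mean of the other 3, which held for 5.49% of all features. Among Control 2 to 4 alone, 18 of 28 were highest in Control 2, against 37.7% of all features. Several members did not follow that order. Bdnf, the ligand of TrkB, was at 40.6, 33.3, 27 and 40.4 CPM, Homer1 at 48.6, 48.1, 51.7 and 72.7 CPM, Crem at 6.15, 5.68, 5.86 and 6.09 CPM and Nptx2 at 12.3, 4.50, 8.85 and 7.05 CPM. Trh, a hypothalamic peptide, stayed at or below 0.0430 CPM. The share of astrocyte, meningeal and ependymal markers was also highest in Control 2 and lowest in Control 1, and its part in the order of the immediate-early genes was not tested.

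**Figure D4:**
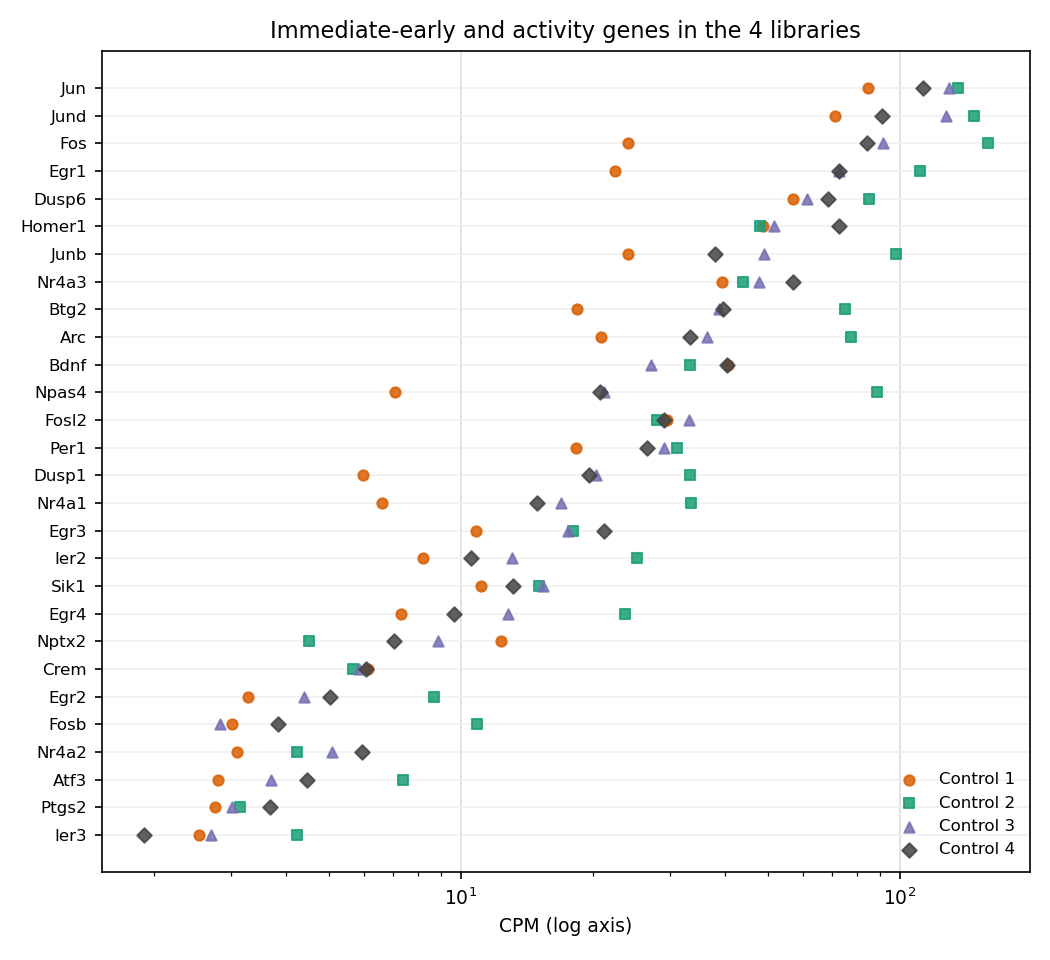
CPM (horizontal log axis) of the 28 immediate-early and activity genes at 1 CPM or more in all 4 libraries, ordered by mean, 1 point for each library. Control 2 is the right-most point for 18 genes and Control 1 the left-most for 21.

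The stretches before the starts of 6 of these genes are shown. A drug of the study raises cAMP, which acts through the cAMP response element. All 6 were highest in Control 2 and lowest in Control 1, and all 6 hold that element or its shorter form. They are not all of the genes with this order of libraries. The full element is TGACGTCA and its shorter form TGACG, or CGTCA on the other strand, and the full element contains both shorter forms overlapping. In the 90 or so bases shown (RefSeq, GRCm38.p6, 5′ to 3′ on the strand of the gene, ending before the start of transcription), capitals mark the full element where there is one and otherwise the shorter form.
Btg2: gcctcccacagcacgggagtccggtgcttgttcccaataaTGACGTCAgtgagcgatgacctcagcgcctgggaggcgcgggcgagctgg
Dusp1: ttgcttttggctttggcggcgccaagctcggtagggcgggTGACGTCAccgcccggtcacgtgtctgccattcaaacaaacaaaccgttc
Fos: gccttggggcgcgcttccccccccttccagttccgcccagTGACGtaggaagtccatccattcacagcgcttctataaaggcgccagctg
Npas4: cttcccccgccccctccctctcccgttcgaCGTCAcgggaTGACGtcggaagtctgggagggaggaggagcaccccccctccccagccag
Nr4a1: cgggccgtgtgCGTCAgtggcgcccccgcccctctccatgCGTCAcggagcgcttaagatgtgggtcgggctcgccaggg
Junb: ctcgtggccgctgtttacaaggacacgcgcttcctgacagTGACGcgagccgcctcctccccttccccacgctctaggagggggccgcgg
These lie on chr1:134079272-134079361 (minus strand), chr17:26508566-26508655 (minus strand), chr12:85473784-85473873 (plus strand), chr19:4990091-4990180 (minus strand), chr15:101266766-101266845 (plus strand) and chr8:84978805-84978894 (minus strand). Positions are counted from the start of transcription over the whole 250 bases before it, of which only a part is printed. The full element began at -166 in Btg2 and at -143 in Dusp1, and a short form at -129 and -66 in Fos, at -179 and -169 in Npas4 and at -106 in Junb. In Nr4a1 there were 4, at -233, -213, -69 and -40. The printed stretches hold the last of the Fos sites and the last pair of the Nr4a1 sites. Jun, Jund and Dusp6, which are not printed, were also highest in Control 2 and lowest in Control 1. Neither form was found at their starts, so the printed genes do not stand for all genes with this order. Over windows of 250 bases before and 50 after each start, 17 of 22 immediate-early genes with an entry had the short form at 1 start or more (77.3%), as did 36.0% of 9837 nuclear protein-coding genes at 1 CPM or more and 20.8% of all 32851 windows. The full element was in 2 of the 22 (9.09%), in 3.70% of the 9837 genes and in 1.79% of all windows, and as a gene can have several starts, shares of genes and of windows are not the same quantity. The short form did not set apart the genes highest in Control 2, of which 11 of 15 with an entry held it, against 5 of 6 of those highest elsewhere. A match of letters is a description and no binding site. Arc and Ier2 are named only.

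Spread between libraries exceeded counting error at every level and was widest among low features. Over the 15295 features with at least 10 counts in each library, the median coefficient of variation (CV) was 17.5%, while counting alone would give 4.19%. It was 28.6% between 1 and 3 CPM, 15.5% between 10 and 30 CPM and 12.7% between 300 and 1000 CPM, where the counting part was 0.824%, and 18.4% for the 46 features above that. Without Control 1 the median CV was 11.5%. edgeR's common biological CV, the spread left after counting error is taken out, was 24.3% with all libraries and 17.4% without Control 1. By class, the median CV was 16.6% for nuclear protein-coding genes, 23.9% for long non-coding RNAs, 31.0% for pseudogenes, 37.9% for small and structural RNAs and 43.1% for the 12 mitochondrial mRNAs, with counting parts of 3.81, 15.3, 11.8, 12.7 and 1.23%.

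**Figure D5:**
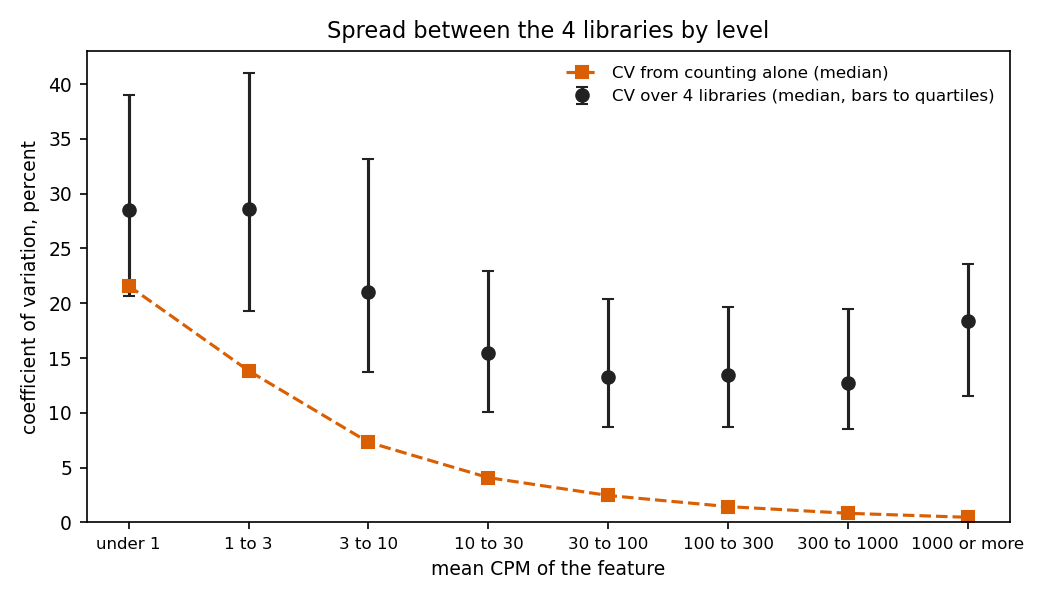
Coefficient of variation between the 4 libraries (vertical axis, percent) by mean CPM of the feature, as the median with bars to the quartiles, beside the median expected from counting alone. The median falls from 28.5% under 1 CPM to 12.7% between 300 and 1000 CPM and is above the counting line in every range.

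The least variable protein-coding genes above 20 CPM differed between libraries by less than counting alone gives. Eif2ak4, the kinase GCN2 that senses amino acid shortage, was at 24.8, 24.9, 24.6 and 24.6 CPM, Fto, an RNA demethylase, at 60.0, 59.4, 59.4 and 59.3 CPM, and Drosha, which cuts microRNA precursors, at 59.9, 59.6, 58.7 and 59.3 CPM. Itpka, a neuronal inositol kinase, was at 69.3, 68.8, 69.2 and 68.1 CPM. The other 4 of the steadiest 8 were Zfand3, Zmym3, Rnf216 and Grb14, and the CV of the 8 ran from 0.542 to 0.925%, where counting alone gives 1.77 to 3.62%. Their order among themselves is therefore not resolved.

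The most variable protein-coding genes above 20 CPM fell into 3 patterns. Npas4, Apod, Ptgds, Id3 and Col1a2 were highest in Control 2 and lowest in Control 1. Apod, a lipocalin of glia and fibroblasts, was at 11.9, 148, 47.7 and 35.7 CPM, Ptgds, the prostaglandin D synthase of meninges and oligodendrocytes, at 7.53, 160.0, 50.8 and 50.6 CPM, and Id3, an inhibitor of bHLH factors, at 7.01, 116, 44.2 and 37.6 CPM. Cox7b, a small subunit of cytochrome c oxidase, and Fdps, of the cholesterol pathway, were instead highest in Control 1, at 259, 51.7, 70.7 and 66.9 CPM, and at 311, 77.3, 103 and 83.5 CPM. Tuba1c, an alpha-tubulin, was at 123 and 112 CPM in Control 1 and 2 and at 2.25 and 1.98 CPM in Control 3 and 4. Its near-identical relatives Tuba1a and Tuba1b varied by a CV of 12.4 and 6.15%. The same pairs of libraries were apart for Bc1, in the opposite direction, and for the entry Gm22513, given below. Values of Tuba1c, Cox7b and Fdps are uncertain where near-identical copies share their reads. Another 34 features were at 5 CPM or more in 1 library and at 0 in another. Of these, 25 were pseudogenes, a class that holds 13249 of the 51267 features, and 25 were highest in Control 1. Among detected features 38.9% were highest in Control 1, but none of the 34 is in that group, as each has a 0. The 51267 features also include 20959 at 0 in all 4 libraries. Neither share is therefore a matched reference for the 34. The one of highest mean, the small nuclear RNA entry Gm22513, was at 297 and 250.4 CPM in Control 1 and 2 and at 0 in Control 3 and 4, and was picked after its values were seen.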

How the data were processed

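Total RNA was described in the 4 vehicle (DMSO) libraries, whose columns the deposited table heads Control 1 to 4. These headings name the group but not which DMSO sample each is. Per the labels' protocols, RNA was extracted with Trizol and chloroform and libraries were made with the TruSeq Stranded Total RNA kit. Per the submitters' processing notes the tools were Salmon and DESeq and the build was GRCm38, with versions not given in the sources used here. The deposited values are estimated counts per gene name (23.9 to 29.0% of values were not whole) and were rounded to whole numbers. Biotypes were joined by gene name from the authors' deposited comparison table, whose mean signal over libraries (size-scaled counts) had a Spearman's rho of 0.978 with the mean of the Control counts. For 39 names with more than 1 biotype, at most 0.170% of a library, the first was taken, and 24 names without one held at most 0.217%.

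CPM were computed in edgeR 4.0.16 (R 4.3.3) with TMM factors over these libraries, and DESeq2 1.42.0 gave alternative size factors. Features at 1 CPM or more in all 4 libraries were called detected, and spread was computed over features with at least 10 counts in every library. The dispersion step was tested on simulated data. Depth, from 21793779 to 45966415 counts, sets the precision of low genes. The planned order test of 12 gene pairs per kilobase was not run, since spliced lengths were not used here, and over 4 libraries its p could not fall below 0.125. Count ratios within libraries are given instead. Counts of members by highest library were repeated without Control 1 after the data were seen.

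Members and gene lists were chosen with earlier results of these data known. Genes were named by rule: the 15 protein-coding genes, 8 long non-coding RNAs, 5 mitochondrial and 5 other RNAs of highest mean CPM, the top 3 of each gene list and all of a list of 8 or fewer, both genes of each pair, the 8 most and least variable protein-coding genes at a mean of 20 CPM or more, and 7 activity genes. Other genes in the text are list members or abundant features that were picked after their values were seen.

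Some genes are not reported here.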

Additional observations from a re-analysis of the deposited data

Results flagged for a closer look

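For 244 values (194 named features, 44 list sums and 6 class shares) the library farthest from the others was compared with the range of all 4, and in 25 of them it lay apart. Chance alone gives about 1 in 20, and the values share 4 libraries, so they are not independent. That rate does not apply to features named for a high or low CV in these same values. Cox7b, Fdps and Rnf216, among the 25, were named in that way. Control 1 was the library apart in 17 of the 25, 14 times as the highest.

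Control 1 was highest for cytoskeletal genes: Tubb2a (1908 CPM), Tubb5 (886.3 CPM), Actg1 (2276 CPM), Sptan1 (2226 CPM) and the sum of the 11 tubulin genes (9323 CPM). It was also highest for the replication genes Pcna (42.3 CPM) and Mcm2 (26.2 CPM), the interneuron gene Calb2 (227 CPM), the G protein gene Gna11 (159.6 CPM) and Aif1 (3.18 CPM), a microglial gene. Cox7b (259 CPM), Fdps (311 CPM), the small nuclear RNA entry Gm23804 (2149 CPM) and the share of pseudogenes (1.73% of counts) were highest there too, and these can share reads with near-identical copies. Control 1 was lowest for the myelin gene Mbp (11.7 CPM), the calcium channel gene Cacna1c (81.9 CPM) and the sum of excitatory neuron markers (1331 CPM).

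Control 2 was highest for Fibcd1 (41.7 CPM), associated with CA1, for Kdr (21.9 CPM), an endothelial receptor, and for the globin Hbb-bs (0.276 CPM, from 11 counts). It was lowest for Rnf216 (47.9 CPM), a gene whose whole range is within counting error, and for the sum of GABAergic markers (1210 CPM). Control 4 was highest for Map2 (1139 CPM), a dendritic microtubule protein, and for Kcnma1 (159.8 CPM), and lowest for Adra2c (9.21 CPM). The cause of these differences was not tested.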

How the results depend on the processing

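The count of detected features (13396) lay between 12312 at a limit of 2 CPM and 14537 at 0.5 CPM under each other limit, scaling or set of 3 libraries tried. Leaving mitochondrially encoded features out of the library totals raised the CPM of all remaining RNAs together, and the mean sum then moved beyond its SD for excitatory neuron markers (1929 CPM), AMPA receptors (1188 CPM), NMDA receptors (927.8 CPM) and adenylyl cyclases (763.4 CPM), as it did for 25 of 44 lists in all. No list sum moved beyond its SD with DESeq2 size factors, library totals without a factor or the unrounded counts. The common biological CV was 29.8% with no filter on low counts and ran from 17.4% without Control 1 to 28.2% without Control 3 when each library was left out. The median CV was 19.3% with library totals without a factor, 39.2% with no filter on low counts, and from 11.5% without Control 1 to 19.1% without Control 3. Of the lists, chloride transport alone moved beyond its very small SD when Control 1 or Control 3 was left out. No paired analysis was possible because a single group is described. The cause of these shifts between libraries was not tested. Depth limits genes below 1 CPM, where counting alone gives a median CV of 21.6%, and Control 1 has the fewest counts.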
